A study of Homo sapiens with 8 samples.

Results

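The genes described here encode ligands and receptors through which an antigen-presenting cell switches T cells on or off, together with genes that mark a maturing dendritic-type cell: CD80, CD86, CD40, CD274, PDCD1LG2, CD276, CD83, CCR7, LAMP3 and FSCN1. They are 10 of the 30233 genes in the table, found by matching Ensembl identifiers to symbols. The genes were selected on their function with the measured difference between LPS with 3-HPA and LPS alone already known, so their values in that comparison are given as a description, without a p-value. RNA-seq was run on 8 libraries of THP-1, a human monocytic leukaemia line of wild-type genotype that phorbol ester (PMA) turns into macrophage-like cells. All cells had PMA at 100 ng/ml for 24 h, then 24 h without it, and all received the bacterial product LPS at 100 ng/mL. One group of 4 libraries had LPS alone. The other 4 had 5 mM 3-HPA (3-hydroxypropionic acid) as well, given at the same time as LPS per the treatment protocol, although the series description speaks of pretreatment. No library lacked LPS. How long cells were exposed is not stated in the labels, and nothing states that libraries came from separate cultures, so errors cover only the spread between these libraries.

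A T cell that meets its antigen needs a further signal, which CD80 and CD86 on the presenting cell give through CD28. The same ligands bind the inhibitory receptor CTLA-4 more tightly. CD40 receives help from T cells through CD40 ligand and raises CD80 and CD86. CD274 (PD-L1) and PDCD1LG2 (PD-L2) engage PD-1 and restrain T cells, and PD-L1 can also bind CD80 on the same cell. Maturing dendritic cells raise CD83, the lymph-node homing receptor CCR7, the lysosomal protein LAMP3 (DC-LAMP) and the actin-bundling protein fascin (FSCN1). Macrophages given LPS carry part of the same set.

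Library depth recovered from the FPKM values was 35647756 to 41859879 reads, and 22917 to 23621 genes lay above 0 in each library. Of the 12 monocyte and macrophage markers examined, 11 were tested, and SPI1, CSF1R, CD14, ITGAX and FCER1G all stood above 100 FPKM in both groups. The other tested markers stood lower, with LPS means from 3.38 FPKM (CD33) to 25.2 FPKM (CD163). The summed level of all 12 markers was 1430 to 1459 FPKM with LPS and 1762 to 1820 FPKM with 3-HPA. CD68, a further macrophage marker, held only 2 to 11 reads per library; whether the transcript was scarce or its reads went uncounted cannot be told apart in this table, so it does not serve as a check. Dendritic-cell markers were mixed, and 6 of them passed the filter. LPS means were 12.7 FPKM for IRF8, 7.22 for ZBTB46, 3.69 for BATF3 and 3.53 for CADM1. IRF4 and FLT3 stood lower, at 1.15 and 0.651 FPKM. Among those below the filter, XCR1 had 0 to 2 reads and CLEC10A 10 to 24. The 9 dendritic-cell genes present summed to 28.6 to 29.9 FPKM with LPS and 27.6 to 28.6 FPKM with 3-HPA. Only 2 of the 6 T-cell markers were in the table. CD5 lay near 0, while TRAC had 17.6 to 18.7 FPKM under LPS and 12.6 to 16.1 with 3-HPA. The 4 B-cell markers lay near 0. What part, if any, these levels have in the results was not tested. In bulk RNA fewer cells expressing a gene and less RNA per cell cannot be told apart.

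Promoter windows in RefSeq (GRCh38.p14, from 250 bases before a transcription start to 50 bases from it) were at hand for 5 of the 10 genes, with 8 windows in all. Shown are those of CD274 and CD80 and the downstream windows of CD83 and CD86, because these genes differ widely in the size of their change. The upstream windows of CD83 and CD86 and the windows of CD276 are not printed. Whether motif content goes with the size of the change was not tested. Capitals mark matches, on either strand, to the interferon element core GAAANNGAAA (ISRE), the STAT element TTCNNNGAA (GAS) or the NF-κB consensus (by name). TATAAA and the AP-1 element TGANTCA were searched too.
CD274, chr9:5450292-5450591, plus strand: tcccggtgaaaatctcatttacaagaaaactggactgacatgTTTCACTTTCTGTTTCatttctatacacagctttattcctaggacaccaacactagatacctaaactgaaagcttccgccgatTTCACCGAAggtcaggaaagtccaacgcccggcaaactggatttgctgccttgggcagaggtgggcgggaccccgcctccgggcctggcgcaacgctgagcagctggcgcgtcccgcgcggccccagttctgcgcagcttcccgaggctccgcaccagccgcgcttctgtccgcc
CD83, chr6:14117522-14117821, plus strand: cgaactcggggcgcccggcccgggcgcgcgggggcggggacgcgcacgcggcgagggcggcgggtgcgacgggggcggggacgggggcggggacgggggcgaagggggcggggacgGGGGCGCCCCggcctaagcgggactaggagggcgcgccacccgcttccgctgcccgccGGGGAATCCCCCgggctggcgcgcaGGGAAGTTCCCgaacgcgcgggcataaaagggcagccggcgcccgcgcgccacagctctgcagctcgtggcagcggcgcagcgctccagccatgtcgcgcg
CD86, chr3:122077534-122077833, plus strand: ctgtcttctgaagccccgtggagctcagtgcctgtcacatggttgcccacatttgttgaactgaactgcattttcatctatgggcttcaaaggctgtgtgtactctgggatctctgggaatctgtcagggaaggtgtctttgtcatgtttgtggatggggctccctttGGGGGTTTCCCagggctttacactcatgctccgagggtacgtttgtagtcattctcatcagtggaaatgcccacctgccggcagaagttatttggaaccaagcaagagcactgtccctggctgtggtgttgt
CD80, chr3:119559565-119559864, minus strand: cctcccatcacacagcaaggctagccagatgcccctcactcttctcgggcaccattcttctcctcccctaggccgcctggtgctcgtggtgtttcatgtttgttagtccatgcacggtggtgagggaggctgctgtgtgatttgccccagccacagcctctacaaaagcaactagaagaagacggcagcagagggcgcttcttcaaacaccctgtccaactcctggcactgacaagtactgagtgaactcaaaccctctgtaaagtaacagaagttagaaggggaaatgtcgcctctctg

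Counting the start base as 1 and the base before it as -1, CD274 held overlapping ISRE cores at -208 to -199 and -202 to -193, and a GAS match at -125 to -117. Of 35116 such windows 3.57% held an ISRE core and 7.66% a GAS match. CD83 held NF-κB matches around -134 to -125, -76 to -65 and -51 to -41, some of them overlapping readings of the same bases, and CD86 held overlapping matches at -82 to -72 in the window of its downstream start. CD276 had a match at -68 to -59 in the downstream of its windows. The NF-κB consensus was present in 11.3% of windows. The CD80 window and the upstream windows of CD86 and CD276 held none of the 5 motifs, and the upstream CD83 window held TATAAA, which 11.5% of windows hold, once on each strand between -243 and -231. TGANTCA, in 7.71% of windows, was in none of the 8. A match is a description of letters, not of binding, and its absence from so short a window says nothing about a factor.

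**Figure D1:**
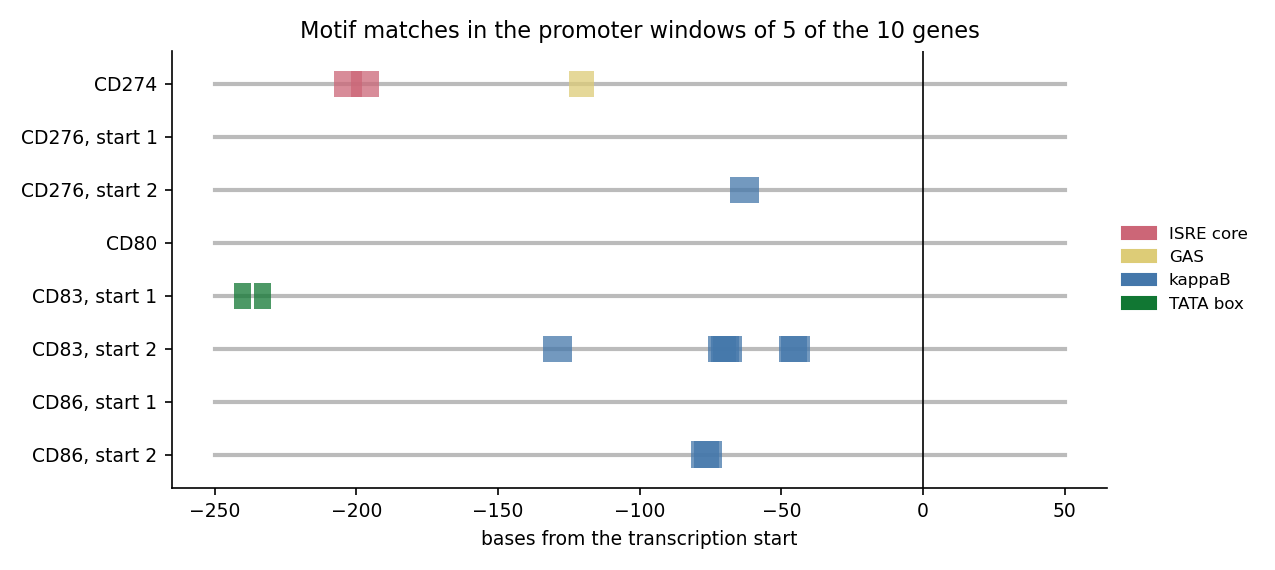
Motif matches (coloured blocks) along the 8 promoter windows of CD274, CD276, CD80, CD83 and CD86; the x axis is distance in bases from the transcription start (vertical line) and each row is a window. CD274 alone among these holds ISRE and GAS matches, the downstream CD83 window holds the most NF-κB (kappaB) matches, and CD80 has none.

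A gene was called when its limma adjusted p, taken over all 12499 tested genes, was under 0.05. All 10 members passed the filter on low values and were called, 9 lower and 1 higher with 3-HPA; over all tested genes 43.7% were called, 28.0% lower and 15.7% higher. Every member had its 2 groups fully apart, as had 42.2% of all tested genes. Because the choice of genes used this comparison, nothing is read from those counts. The median log2 difference (of FPKM + 1, LPS with 3-HPA minus LPS) was -0.53 over the members and -0.047 over all tested genes. Sizes ranged widely: 4 members had at least 2-fold lower mean FPKM and 5 differed by less than 1.5-fold. The summed level of the members was 839.6 ± 11.2 FPKM with LPS and 498.3 ± 6.70 FPKM with 3-HPA (errors here and throughout are SD over the 4 libraries of a group), and CCR7 made up most of that fall.

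**Figure D2:**
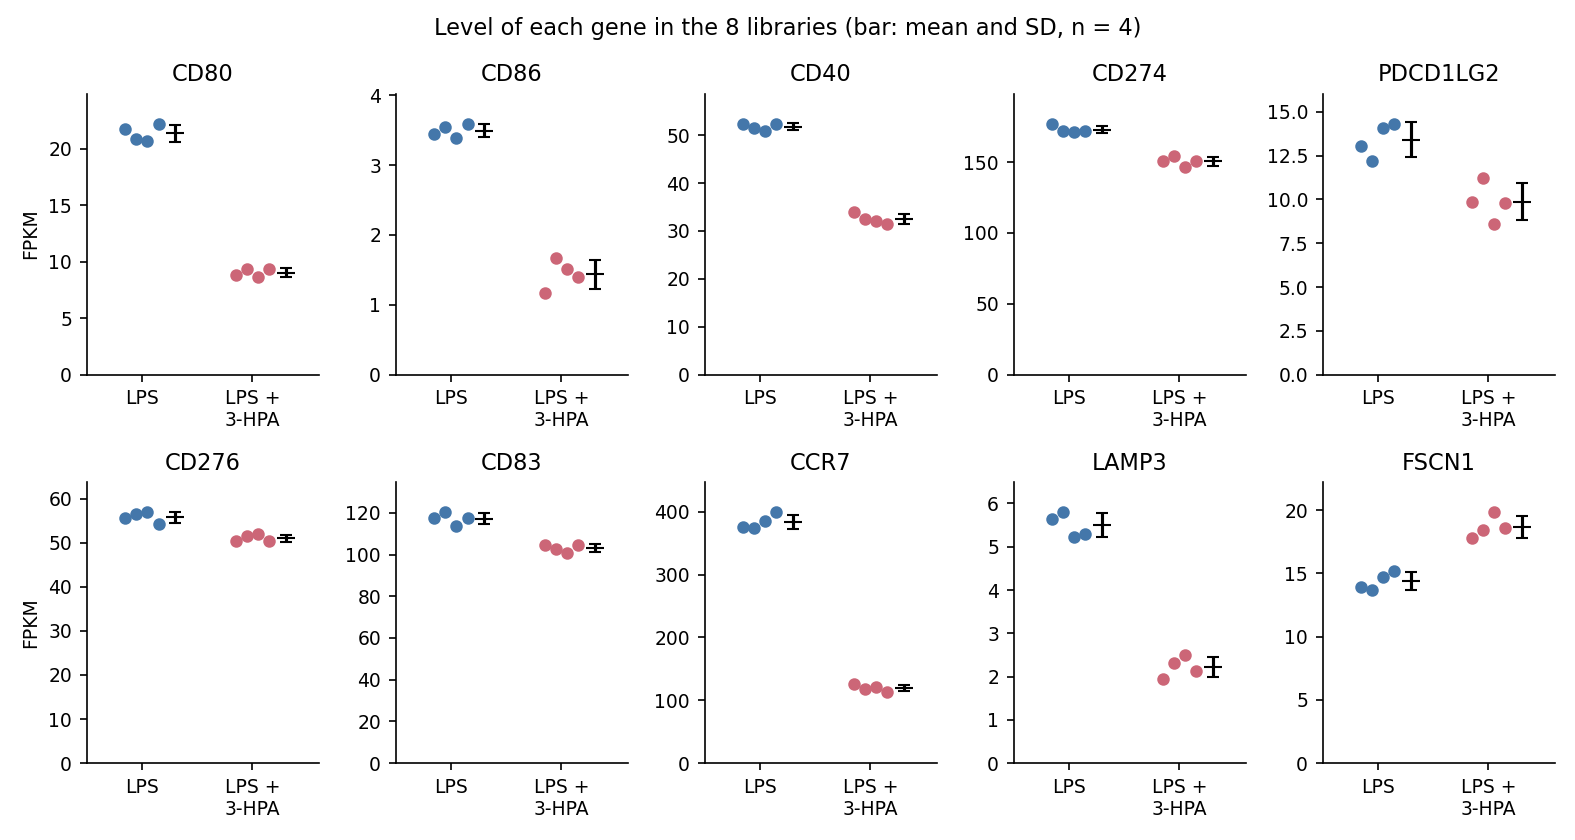
FPKM of each gene (y axis, from 0) in the 4 LPS libraries (blue) and the 4 LPS with 3-HPA libraries (red), with mean and SD as black bars. In each panel the red points lie wholly below the blue ones, except for FSCN1, where they lie wholly above.

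Among the costimulatory ligands, CD80 (ENSG00000121594; GRCh38 chromosome 3, 119524293 to 119559602, minus strand) stood at 21.8, 20.8, 20.7 and 22.2 FPKM in LPS libraries 1 to 4. With 3-HPA it stood at 8.86, 9.34, 8.63 and 9.36 FPKM. The groups lay far apart, with every 3-HPA library below every LPS library, and the means differed 2.36-fold (log2 difference -1.16, SE 0.034). Between 989 and 2992 reads lay behind each value. In GENCODE 29, 798 of the 3201 exon bases of CD80 are also exon of TIMMDC1 on the opposite strand, and whether reads were counted by strand is not stated. TIMMDC1, for a complex I assembly factor, had a log2 difference of -0.15 (limma adjusted p = 0.00364).

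CD86 (ENSG00000114013; chromosome 3, 122055366 to 122121139, plus strand), the other CD28 ligand, was the lowest of the 10 genes. Its levels were 3.44, 3.55, 3.39 and 3.59 FPKM with LPS and 1.17, 1.67, 1.51 and 1.40 FPKM with 3-HPA. Every 3-HPA library was below every LPS library. Means differed 2.43-fold, close to CD80, while the log2 difference on the FPKM + 1 scale was smaller (-0.89, SE 0.064), since the added 1 compresses low values. Only 151 to 517 reads lay behind these values, and the spread relative to the mean widened from 2.69% with LPS to 14.7% with 3-HPA.

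CD40 (ENSG00000101017; chromosome 20, 46118272 to 46129863, plus strand), the receptor for T-cell help, read 52.4, 51.5, 50.8 and 52.3 FPKM with LPS. In the 3-HPA libraries it read 33.9, 32.4, 32.2 and 31.5 FPKM. The groups lay apart by many times their spread, with a log2 difference of -0.66 (SE 0.024) and a 1.59-fold higher mean with LPS. The gene length behind the deposited values was 5619 bases, against 2527 exon bases in GENCODE 29, so its level per length depends on the annotation used.

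The ratio of CD80 to CD86 within a library changed little. It ran from 5.88 to 6.32 with LPS and from 5.58 to 7.58 with 3-HPA, and the groups overlapped. CD40 over CD80 rose from 2.42 ± 0.0536 to 3.59 ± 0.216, without overlap, so CD40 kept more of its level than CD80 did.

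CD274 (ENSG00000120217; chromosome 9, 5450503 to 5470566, plus strand), the gene of PD-L1, moved far less than the CD28 ligands. It read 177.1, 171.9, 171.1 and 171.8 FPKM with LPS and 151.0, 154.2, 146.4 and 150.9 FPKM with 3-HPA. All 3-HPA libraries were below all LPS libraries, but the mean fell by 12.9% (log2 difference -0.20, SE 0.019), on 21433 to 29549 reads per library. LPS library 1 stood somewhat above the other 3.

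PDCD1LG2 (ENSG00000197646; chromosome 9, 5510570 to 5571254, plus strand), for PD-L2, lies next to CD274 on the same strand. It was more than 10 times less abundant, at 13.0, 12.2, 14.1 and 14.3 FPKM with LPS and 9.83, 11.2, 8.62 and 9.81 FPKM with 3-HPA. The highest 3-HPA library came within 1 FPKM of the lowest LPS library, the narrowest separation among the 10 relative to spread. The log2 difference was -0.41 (SE 0.074) and the mean fell by 26.4%.

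CD276 (ENSG00000103855; chromosome 15, 73683966 to 73714518, plus strand) encodes B7-H3, a B7-family protein for which inhibitory effects on T cells have been described. It showed the smallest difference of the 10, from 55.6, 56.4, 56.9 and 54.2 FPKM with LPS to 50.4, 51.4, 51.9 and 50.3 FPKM with 3-HPA. The groups were separate but close, with a log2 difference of -0.13 (SE 0.020). That size depended on how libraries were scaled, being -0.07 with TMM scaling and -0.16 with equal FPKM totals.

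As the inhibitory ligand gene fell less than the CD28 ligand genes, their ratio within each library shifted. CD274 over CD80 was 8.14, 8.25, 8.27 and 7.72 in LPS libraries 1 to 4 and 17.0, 16.5, 17.0 and 16.1 in 3-HPA libraries 1 to 4. Every 3-HPA library had a far higher ratio than any LPS library, with means of 8.09 ± 0.253 and 16.7 ± 0.423. CD274 over CD86 likewise went from 49.6 ± 1.69 to 106.6 ± 16.4. CD274 over PDCD1LG2 overlapped between the groups, at 12.0 to 14.1 with LPS and 13.7 to 17.0 with 3-HPA. Ratios within a library do not depend on a scaling factor per library, but they are of transcripts, not of surface protein.

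**Figure D3:**
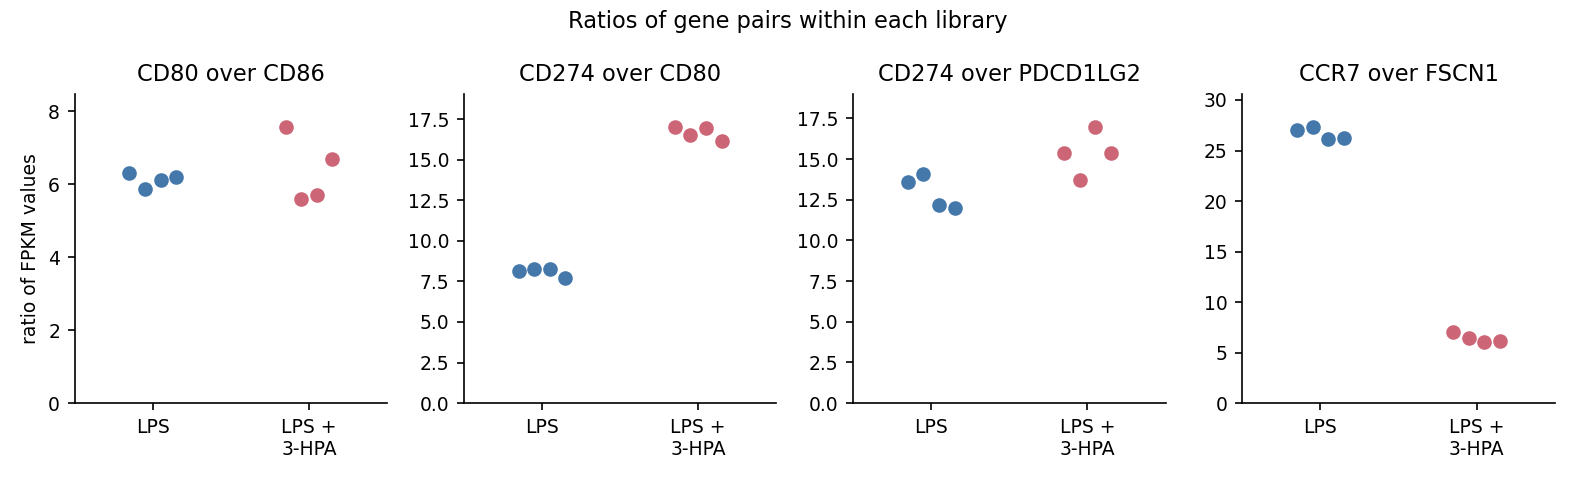
Ratios of FPKM values for 4 gene pairs within each library (y axis, from 0; blue, LPS; red, LPS with 3-HPA; 4 libraries each). CD274 over CD80 sits near 8 with LPS and above 16 with 3-HPA, CCR7 over FSCN1 goes from above 26 to about 6 or 7, and the other 2 ratios overlap between groups.

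Among the maturation genes, CCR7 (ENSG00000126353; chromosome 17, 40553769 to 40565472, minus strand), the receptor that guides cells towards CCL19 and CCL21 in lymph nodes, had both the highest level with LPS and the largest difference. It read 376.2, 374.3, 384.8 and 399.4 FPKM with LPS. With 3-HPA it read 126.3, 118.5, 120.8 and 113.6 FPKM. The 3-HPA libraries all lay far below the LPS libraries, and the mean fell by 68.8% and a log2 difference of -1.67 (SE 0.033). Of all 12499 tested genes 5 had a more negative difference on this scale. Its level stood above 99.5% of tested genes with LPS and above 97.9% with 3-HPA.

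LAMP3 (ENSG00000078081; chromosome 3, 183122213 to 183163839, minus strand), a lysosomal membrane glycoprotein of mature dendritic cells, was low throughout. It read 5.65, 5.80, 5.23 and 5.30 FPKM with LPS and 1.94, 2.30, 2.51 and 2.14 FPKM with 3-HPA. No 3-HPA library reached the level of any LPS library, and means differed 2.47-fold (log2 difference -1.01, SE 0.059; 276 to 906 reads). CD83 (ENSG00000112149; chromosome 6, 14117256 to 14136918, plus strand), a surface protein that stabilises CD86 and MHC class II on maturing cells, changed much less. Its levels were 117.6, 120.3, 113.6 and 117.5 FPKM with LPS and 104.4, 102.8, 100.6 and 104.7 FPKM with 3-HPA, a log2 difference of -0.18 (SE 0.021). The change was small, but the groups lay fully apart, with at most 104.7 FPKM with 3-HPA and at least 113.6 FPKM with LPS.

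FSCN1 (ENSG00000075618; chromosome 7, 5592823 to 5606655, plus strand), for the actin bundler behind the dendrites of mature dendritic cells, went the other way. It read 13.9, 13.7, 14.7 and 15.2 FPKM with LPS and 17.8, 18.4, 19.8 and 18.6 FPKM with 3-HPA. Every 3-HPA library was above every LPS library, with a 1.30-fold ratio and a log2 difference of 0.35 (SE 0.041). The maturation genes therefore did not share one size or direction: CCR7 over FSCN1 went from 26.7 ± 0.595 to 6.43 ± 0.469, and CCR7 over CD83 from 3.27 ± 0.143 to 1.16 ± 0.0573, both without overlap.

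**Figure D4:**
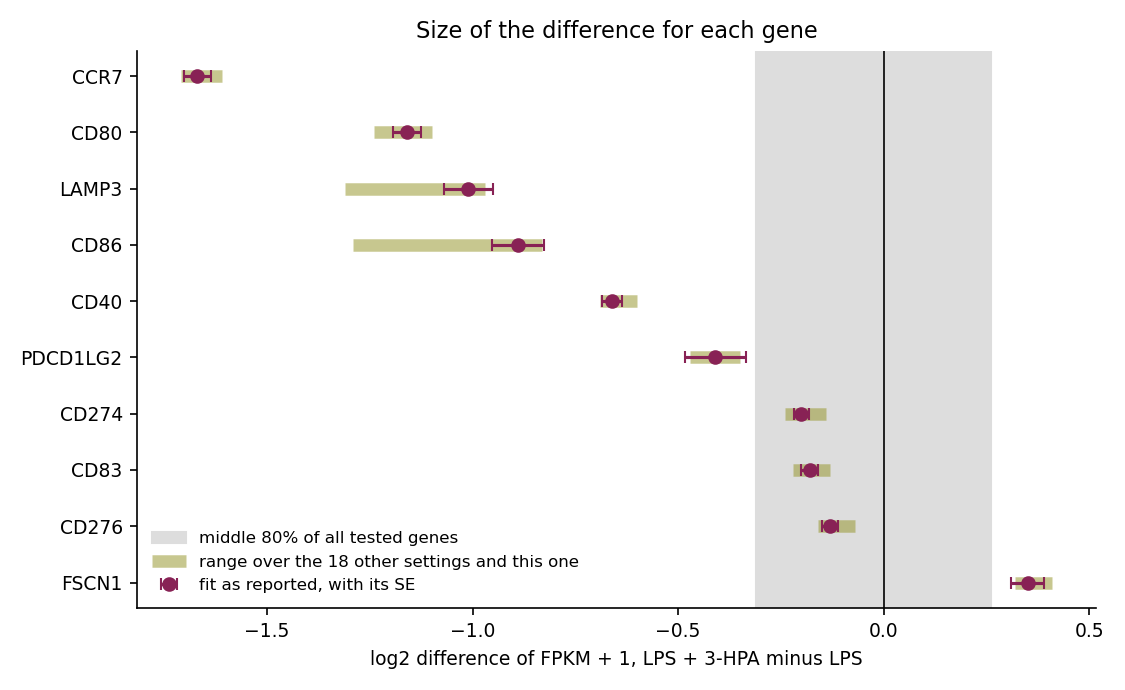
Log2 difference of FPKM + 1 (x axis, LPS with 3-HPA minus LPS) for each gene, as reported with its SE (points) and over all settings tried (thick bars); the grey band holds the middle 80% of all tested genes, from -0.31 to 0.26. CCR7 lies lowest at -1.67, CD274, CD83 and CD276 lie inside the band, and FSCN1 is the one gene above 0.

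The order of levels also changed. With LPS it ran CCR7, CD274, CD83, CD276, CD40, CD80, FSCN1, PDCD1LG2, LAMP3 and CD86, each range separate from its neighbour except FSCN1 and PDCD1LG2, which overlapped. With 3-HPA, CD274 stood first, ahead of CCR7, and FSCN1 and PDCD1LG2 stood above CD80. PDCD1LG2 and CD80 then overlapped, at 8.62 to 11.2 and 8.63 to 9.36 FPKM. Relative spread between libraries stayed at or under 5% for 7 members in both groups and was wider with 3-HPA for CD86 (14.7%), PDCD1LG2 (10.9%) and LAMP3 (10.8%), which were among the least abundant.

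To set these genes in their pathway, 10 lists of related genes were examined, with 108 distinct genes in the table and 72 tested. Of these, 10 were called higher, 45 lower and 17 not called, with a median log2 difference of -0.15. Over all tested genes 15.7% were called higher and 28.0% lower, with a median of -0.047. The lists were chosen with earlier results of these data known, so the counts here and for each list below are a description. Of the other costimulatory ligands, 7 of 8 tested fell and none rose. CD70, the ligand of CD27 on T cells, fell most, with a mean of 48.7 ± 0.533 FPKM with LPS that was 2.32-fold that with 3-HPA (log2 difference -1.18, limma adjusted p = 6.35e-09), a size like that of CD80. TNFSF9 (4-1BB ligand) fell by 0.51 (adjusted p = 1.22e-05), the adhesion ligand CD58 by 0.45 (adjusted p = 0.000292) and the herpesvirus-entry-mediator ligand TNFSF14 by 0.37 (adjusted p = 0.000455). ICAM1, an adhesion ligand for T-cell integrins and the most abundant of them at 631.7 ± 4.62 FPKM with LPS, fell by 0.12 (adjusted p = 0.000114). The one not called was TNFSF15, at -0.054 (adjusted p = 0.396).

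Of the other inhibitory ligands, 7 of 10 tested fell and none rose; with TMM scaling 5 fell and 1 rose, since PVR and BTN3A2 no longer passed (adjusted p = 0.0909 and 0.0978) and NECTIN2 was called higher (0.08, adjusted p = 0.00725). CD47, which signals to phagocytes through SIRPα, fell by 0.61 (from 14.1 ± 0.337 to 8.90 ± 0.314 FPKM, adjusted p = 4.94e-07). LGALS9 (galectin-9) fell by 0.39 (adjusted p = 1.76e-06), VSIR (VISTA) by 0.34 (adjusted p = 8.97e-05) and the butyrophilin BTN2A2 by 0.31 (adjusted p = 0.00238). TNFRSF14, which binds BTLA, was not called, with -0.12 (adjusted p = 0.760) and a wide spread (1.43 ± 0.713 and 1.23 ± 0.695 FPKM). Of the counter-receptors and ligands of the members, 5 of 8 genes listed were in the table, and CD28, ICOS and CD40LG were not analysed here. CTLA4 was above 0 only in LPS library 1 (0.0229 FPKM) and PDCD1 only in 3-HPA library 3 (0.0268 FPKM). The CCR7 ligands CCL19 and CCL21 had at most 4 reads in a library. RGMB, a binding partner of PD-L2, had 134 to 209 reads and was not called (-0.057, adjusted p = 0.464).

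Of 11 other dendritic maturation genes tested, 8 fell and 2 rose. TRAF1, a signalling adaptor, fell by 0.68 (from 126.3 ± 2.78 to 78.4 ± 2.06 FPKM, adjusted p = 5.08e-08). NFKB2 for the p100 subunit of NF-κB fell by 0.40 (adjusted p = 4.92e-06), EBI3 for a cytokine subunit of IL-27 by 0.33 (adjusted p = 0.000153) and IL7R by 0.33 (adjusted p = 0.00888). MARCKSL1, a membrane-bound regulator of actin, rose by 0.63 (from 158.0 ± 3.31 to 245.1 ± 6.98 FPKM, adjusted p = 8.09e-08), in the direction of FSCN1. TNFAIP2 rose by 0.11 (adjusted p = 0.0111), a call that ended with equal totals (adjusted p = 0.061).

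In the list for CD40 and NF-κB signalling, 12 of 14 tested genes fell and 1 rose. TRAF1, NFKB2, RELB and BIRC3, all lower, were also in the list of dendritic maturation genes, so the counts of these lists overlap. After TRAF1 and NFKB2 came the NF-κB subunit REL (-0.33, adjusted p = 0.000772) and TNFAIP3 for the feedback inhibitor A20 (-0.27, adjusted p = 4.41e-07). RELB, the partner of the p100-derived subunit, fell by 0.24 (adjusted p = 9.28e-05). MAP3K14, for the NF-κB-inducing kinase that acts below CD40, rose by 0.39 (from 2.21 ± 0.137 to 3.21 ± 0.282 FPKM, adjusted p = 0.000536). TRAF3, named after its value was seen, fell by 0.084 (adjusted p = 0.0174), but did not pass with TMM scaling (adjusted p = 0.337).

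Genes of the JAK, STAT and IRF route to the PD-L1 gene, examined with PD-L1 regulators, were split: 5 of 11 tested rose and 3 fell, with a median of 0.09, while with equal totals 3 rose and 4 fell. JAK2, a kinase below the interferon-γ receptor, fell by 0.40 (from 42.4 ± 0.581 to 32.0 ± 0.409 FPKM, adjusted p = 2.36e-07) and STAT2, of the type I interferon route, by 0.35 (adjusted p = 7.41e-08). The interferon-γ receptor gene IFNGR1 rose by 0.19 (adjusted p = 0.00101), JAK1 by 0.12 (adjusted p = 0.00281) and IRF1, a transcription factor acting on the PD-L1 promoter, by 0.10 (adjusted p = 0.000843). IFNGR2 rose by 0.13 (adjusted p = 0.0341), a call that ended without LPS library 1 or 2 or any single 3-HPA library (adjusted p 0.0550 to 0.0867). CMTM6, which protects PD-L1 protein from breakdown, fell by 0.092 (adjusted p = 0.00827), a call that ended with TMM scaling (adjusted p = 0.239).

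**Figure D5:**
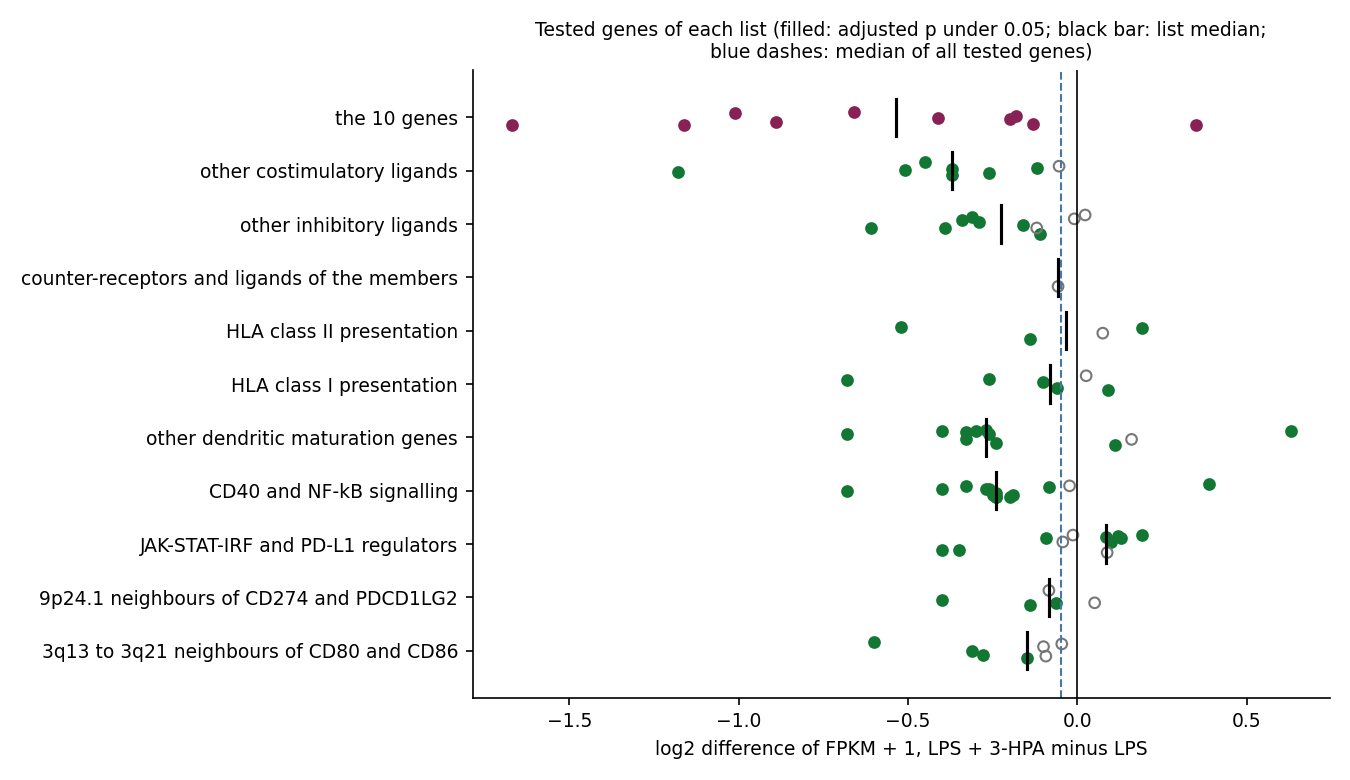
Log2 difference (x axis, FPKM + 1, LPS with 3-HPA minus LPS) of every tested gene in each list; filled points were called, open ones were not, black bars are list medians and the dashed line is the median of all tested genes (-0.047). Points of the costimulatory, inhibitory and NF-κB lists lie mostly below 0, with CD70 lowest at -1.18, while the JAK, STAT and IRF list spreads to both sides.

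Antigen-presentation genes could be followed only in part. Of the class II list 4 genes were tested: CD74, the invariant chain, fell by 0.52 (from 38.9 ± 0.639 to 26.9 ± 0.688 FPKM, adjusted p = 2.14e-07), the protease gene CTSS by 0.14 (adjusted p = 2.17e-05), and the thiol reductase gene IFI30 rose by 0.19 (adjusted p = 0.0122). CIITA, the class II master regulator, had 129 to 173 reads (0.185 ± 0.0153 and 0.175 ± 0.0123 FPKM) and MARCHF1, the ligase that removes CD86 and class II from the surface, had 36 to 69 reads; both lay below the filter. Of the class I list 6 of 14 were tested, since HLA-B, HLA-C, TAP2, TAPBP, PSMB8 and PSMB9 had at most 103 reads in any library and TAP1 was above the filter in too few libraries. ERAP2, a peptide-trimming enzyme, fell by 0.68 (adjusted p = 2.77e-06) and ERAP1 by 0.26 (adjusted p = 0.00894). B2M, the light chain of class I, rose by 0.091 (from 779.7 ± 5.57 to 830.5 ± 8.00 FPKM, adjusted p = 0.000296). PSMB10 (-0.10, adjusted p = 0.0462) and NLRC5 (-0.06, adjusted p = 0.0391) passed narrowly, and neither did with TMM scaling (adjusted p = 0.347 and 0.876) or without any one of most libraries. Among the 8 omissions of a library, the PSMB10 call held only when LPS library 3 or 3-HPA library 4 was the one left out (adjusted p otherwise 0.0552 to 0.111), and the NLRC5 call only when 3-HPA library 3 was (otherwise 0.0512 to 0.0936).

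Genes placed near the members were examined for shared direction. Around CD274 and PDCD1LG2 at 9p24, 3 of 5 tested neighbours fell: JAK2, given above, PLGRKT, a plasminogen receptor gene, by 0.14 (adjusted p = 0.00507) and RIC1 by 0.064 (adjusted p = 0.0319). PLGRKT and RIC1 did not pass with TMM scaling (adjusted p = 0.0624 and 0.746), and RIC1 was also lost without LPS library 3 or 4 or any one 3-HPA library (0.0532 to 0.0851). Around CD80 and CD86 on the long arm of chromosome 3, 4 of 7 tested neighbours fell, among them CSTA for the protease inhibitor cystatin A (-0.60, adjusted p = 8.95e-06) and ADPRH (-0.28, adjusted p = 0.000606). POPDC2 fell by 0.31 (adjusted p = 0.0496) but not with TMM scaling (adjusted p = 0.0734), and of the 8 omissions of a library it passed only in those of LPS library 2 and 3-HPA library 3 (otherwise 0.0926 to 0.122). Neither list held a neighbour called higher, and 28.0% of all tested genes were called lower.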

How the data were processed

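RNA-seq values came as 1 deposited table of FPKM (reads per gene, scaled by gene length and by library total, per the labels) for 30233 Ensembl genes in 8 libraries. The submitters' processing notes name fastp (0.22.0), HISAT2 (2.1.0), featureCounts and the genome build GRCh38. No strand setting or annotation release is stated there. Symbols came from a table of gene names, which matched 30221 identifiers. Whole reads were recovered by searching for library totals and gene lengths that make every value whole within 0.01.

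Values were compared as log2(FPKM + 1) by limma (version 3.58.1, in R 4.3.3). Genes entered with 0.5 FPKM or more in 4 or more libraries. The variance followed a trend over mean level, tests were two-sided, and p-values were adjusted by Benjamini-Hochberg across the genes that entered, with a threshold of 0.05. On simulated data with known changes, the limma step was tested first. Other steps used Python (3.11.15) with numpy (2.4.6) and pandas (2.3.3), and plots used matplotlib (3.10.9). Alternatives were other pseudocounts (0.5, 0.1) and filters (none, 1 FPKM), other scalings (equal totals, TMM written out from its definition, quantile), a fit without the trend, a replicate block, omission of each library, and voom on recovered reads.

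The members and gene lists were chosen with earlier results of these data known, so members carry no p-value. Named outside the members were up to 4 called genes per list and direction, ordered by size, and ICAM1, CIITA, RELB, NFKB2, JAK2, IRF1, CMTM6, MARCHF1 and TNFRSF14. Markers were named for the check of cell type. The rule names 1 further gene, which is not reported here. Any other gene was named after its values were seen.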

Additional observations from a re-analysis of the deposited data

Results flagged for a closer look

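Each member and each ratio was examined for a library standing apart within its group of 4, in 36 groups, of which chance alone flags about 1 in 20. In 1 case the gap was large relative to the range: CD274 in LPS library 1, at 177.1 FPKM, stood above the other LPS libraries (171.1 to 171.9 FPKM), with 0.868 of the range lying between it and the next. Without that library the log2 difference of CD274 was -0.19, against -0.20 with it.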

How the results depend on the processing

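In all 18 alternatives the 10 members kept their direction and their call, 9 lower and 1 higher. Because the choice of genes used this comparison, nothing further is read from that. Leaving out each library in turn moved the count of all genes called to between 4931 and 5050, against 5462 with all libraries, and that of list genes called to between 50 and 52, against 55. The members' log2 differences then stayed between -1.70 and -1.65 for CCR7 and between -0.47 and -0.35 for PDCD1LG2. With the replicate number as a replicate block 5074 genes were called. Deviations of same-numbered libraries correlated at -0.0231, -0.00348, 0.0357 and 0.0894, and those of differently numbered libraries at -0.056 to 0.0763. Correlations this small cannot show whether same-numbered libraries shared a culture or a batch. Scaling set the share of higher calls among all calls: 36.0% as deposited, 28.5% with equal totals, 46.4% after quantile normalisation and 49.7% with TMM. The median of all genes moved between -0.075 and -0.006. In the lists, 10 higher and 45 lower became 11 and 36 with TMM, and 7 and 47 with equal totals. Differences of low genes depended on the pseudocount: CD86 went from -0.89 to -1.24 and LAMP3 from -1.01 to -1.27 with a pseudocount of 0.1. With voom on recovered reads CD86 stood at -1.29 and LAMP3 at -1.31. Depth limits CD86 most, with 151 to 517 reads per library.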

Other observations

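Several macrophage markers examined for the cell type were higher with 3-HPA, while the costimulatory genes were lower. CD14, the LPS co-receptor, stood at 133.3 ± 3.37 FPKM with LPS and 228.3 ± 6.48 FPKM with 3-HPA (log2 difference 0.77, limma adjusted p = 3.99e-08). MERTK, a receptor for clearing dead cells, rose from 7.66 ± 0.361 to 21.9 ± 0.651 FPKM (1.40, adjusted p = 1.3e-08), and CSF1R, the receptor for M-CSF, rose by 0.49 (adjusted p = 3.69e-07). CD163, a scavenger receptor, fell by 0.34 (adjusted p = 5.87e-06). BATF3, a transcription factor of conventional dendritic cells, fell from 3.69 ± 0.465 to 1.85 ± 0.111 FPKM (-0.71, adjusted p = 4.74e-05), while CADM1, an adhesion molecule, rose by 0.31 (adjusted p = 0.000106) and ZBTB46, a further transcription factor of these cells, by 0.14 (adjusted p = 0.0215). Of the 6 dendritic-cell markers tested, 2 rose, 2 fell and 2 were not called. Of the 11 macrophage markers tested, 7 rose and 2 fell. Over all tested genes 15.7% were called higher and 28.0% lower. These genes were chosen as markers, not for their change, but earlier results of these data were known.

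Some related genes lay below the filter and were not tested. CCL22, a chemokine of mature dendritic cells, had 0.370 ± 0.0993 FPKM with LPS and 0.136 ± 0.0460 FPKM with 3-HPA, on 9 to 54 reads. TAP1, a peptide transporter gene, read 47.7 FPKM in LPS library 1 and 0.221 to 0.693 FPKM in the other 7 libraries.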
